A study of Rattus norvegicus with 84 samples.

Results

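The enzymes that write and erase chemical marks on histones and on DNA were followed across 3 subregions of the rat hippocampus and between 12 and 5 months of age. Members were found by matching gene symbols, with no measured value in the rule, and make up 69 of the 15999 genes in the deposited tables: 20 lysine methyltransferases (Kmt, Setd, Ehmt, Ezh and Suv39h genes), 18 lysine demethylases (Kdm), 7 acetyltransferases (Kat), 12 deacetylases of the Hdac family, 6 sirtuins, 3 DNA methyltransferases and 3 Tet dioxygenases. All 69 stood in each of the 3 tables and passed the filter on low values in each. A few members act mainly on other proteins: Sirt3, Sirt4 and Sirt5 are mitochondrial, Hdac6 deacetylates tubulin and Setd3 methylates actin. Hdac1l resembles Hdac1, and the X-linked Kdm5c resembles the Y-linked Kdm5d, so reads of such copies may be split between them and their values are uncertain to that extent. Suv39h1l1 is an older symbol that RefSeq lists under Suv39h1.

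RNA sequencing was done on the dentate gyrus (DG), CA1 and CA3 of 16 middle-aged rats (12 months) and 12 young rats (5 months). The labels name no treatment, and all animals were males of F344, an inbred strain much used in the study of ageing. Each rat gave 1 polyA-selected library per subregion, from 1 hemisphere, so 84 libraries came from 28 rats. Each subregion holds many cell types, and fewer cells of a type cannot be told apart from less RNA per cell in any value below.

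The libraries held 14.4 to 23.4 M recovered reads. Levels are given as RPM, a library's reads scaled to a total of 1000000. Summed marker levels were highest in the labelled subregion. The RPM of 5 CA1 genes together lay between 1839 and 3593 in CA1 libraries and reached at most 1056 in the others. The 4 DG genes present summed to 510 to 859 in DG libraries and to at most 399 elsewhere, and the 4 CA3 genes to 573 to 820 in CA3 and to at most 560 elsewhere, a narrow gap. One CA3 gene, Cdh24, went against this, with a median of 8.26 RPM in CA3, 11.8 in CA1 and 9.25 in the DG. Some markers of cell types differed with age. In the DG, 5 neuronal genes summed to 3714 to 4881 RPM at 12 months (median 4427) and 3218 to 4370 RPM at 5 months (median 3721), 3 of them rising and 2 falling. Of 7 microglial genes, 1 (DG), 2 (CA1) and 5 (CA3) passed the test upward, with 0 downward. Their summed level in CA3 was 326 to 1351 RPM at 12 months (median 363) and 268 to 333 RPM at 5 months (median 315). In CA1 it was 361 to 1985 RPM at 12 months (median 405) and 324 to 410 RPM at 5 months (median 366). Of 4 endothelial and mural genes, 3 fell in the DG, with sums of 119 to 223 RPM at 12 months and 169 to 245 RPM at 5 months. Mitochondrially encoded genes took 11.5 ± 1.81% of CA1 reads at 12 months and 8.54 ± 2.43% at 5 months, 9.04 ± 1.36% and 7.59 ± 1.56% of CA3 reads, and 7.96 ± 1.26% and 7.06 ± 2.64% of DG reads (SD, n = 16 and 12). The part of these shifts in the results below was not tested. The animal numbers were taken as 2 runs. The first is 1 unbroken stretch, in which the 6 rats of 5 months come first and the 10 rats of 12 months follow. The second joins 2 separate stretches, one of 6 rats of 12 months and one of 6 rats of 5 months, so that stretch and age cannot be told apart in it. The order of animal numbers and age cannot be told apart in either run. The mitochondrial share of CA1 reads separated the ages in the second run. It was 5.22 to 7.72% at 5 months and 11.1 to 13.2% at 12 months. In the first run the ages overlapped, with CA1 shares up to 13.6% at 5 months and from 8.31% at 12 months. In the second run they overlapped in CA3 (up to 8.08% and from 7.96%) and in the DG (up to 7.03% and from 6.62%). The part of this share in the calls of either run was not tested. The labels do not call the runs batches, and 3 libraries per subregion stood farthest from their group, so results are also given within runs and without those libraries.

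Histone tails carry acetyl and methyl groups that open or close chromatin. Acetyltransferases and deacetylases add and remove the acetyl groups, and lysine methyltransferases and demethylases do the same for methyl groups, whose effect depends on the lysine that bears them. DNA methyltransferases place methyl groups on cytosine, mostly in CG pairs, and Tet enzymes oxidise them. In hippocampal neurons several of these enzymes are known to limit or permit the gene expression that memory needs, Hdac2, Hdac3, Ehmt2 and Dnmt3a among them.

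Across the whole set, 25 of the 69 genes changed between 12 and 5 months in the DG, 14 upward and 11 downward (limma on log2 of the value plus 1, Benjamini-Hochberg adjusted p below 0.05 over all genes). That share of 36.2% lay near the 37.1% of all 14526 genes tested there. In CA1, 20 members changed, 4 upward and 16 downward, 29.0% against 25.2% of all genes. The 4 upward became 2 to 8 with 1 rat left out and 9 with the run as a term, where 21 fell. With that term 2356 of all 14685 genes in CA1 rose and 2369 fell, against 1827 and 1873 without it. Of all genes in CA1, 12.4% rose and 12.8% fell without the term. In CA3, 15 members changed, 3 upward and 12 downward, and the share of 21.7% was that of all genes, of which 10.9% rose and 10.8% fell. Averaged over a rat's 3 subregions, 17 members rose and 21 fell, 55.1% against 50% of all genes (25.4% upward and 24.6% downward). The median log2 change of the 69 members was 0.013 (DG), -0.060 (CA1) and -0.038 (CA3), beside medians of 0.0100, 0.0038 and 0.0022 over all genes.

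The 25 members called in the DG moved by 0.14 to 0.58 on the log2 scale in either direction, the 20 in CA1 by 0.13 to 0.50 and the 15 in CA3 by 0.11 to 0.28. Kdm4c and Kdm5d rose and Hdac5, Kdm4b and Kdm6b fell in each subregion. A further 10 members passed in a pair of subregions, 1 of them upward (Kdm3a) and 9 downward, 25 passed in 1 subregion and 29 in none. Sharing between subregions was not counted over all genes, so these counts cannot be read as particular to the members. Within the runs, 25 of the 25 called members in the DG, 20 of 20 in CA1 and 14 of 15 in CA3 kept one sign in both, Tet3 in CA3 being the exception. Calling on both runs together favours such agreement. Of all 69 members, called or not, 48 (DG), 55 (CA1) and 43 (CA3) kept one sign. In the DG the first run alone called 0 of the 69 (0.172% of all genes) and the second run alone 36 (46.9%). In CA1 these runs called 2 (3.19%) and 27 (33.8%), in CA3 0 (4.83%) and 13 (16.5%), and on average 14 (18.4%) and 45 (58.1%). The calls thus came mainly with the second run. In that run each age is a separate stretch of animal numbers, and in the first run each age is a separate block of an unbroken stretch. Without the farthest libraries, 32 (DG), 26 (CA1) and 11 (CA3) members passed, of which 24, 19 and 10 were among those called with all libraries. In the same fits 3135 of 14526 genes rose and 3045 fell (DG), 2195 and 2261 of 14685 (CA1), and 1384 and 1411 of 14893 (CA3). With all libraries 2690 genes rose and 2692 fell (DG), 1827 and 1873 (CA1), and 1628 and 1603 (CA3). Suv39h2 no longer passed in the DG, Kdm4b in CA1, and Dnmt3a, Ehmt1, Hdac10, Hdac5 and Tet3 in CA3.

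**Figure D1:**
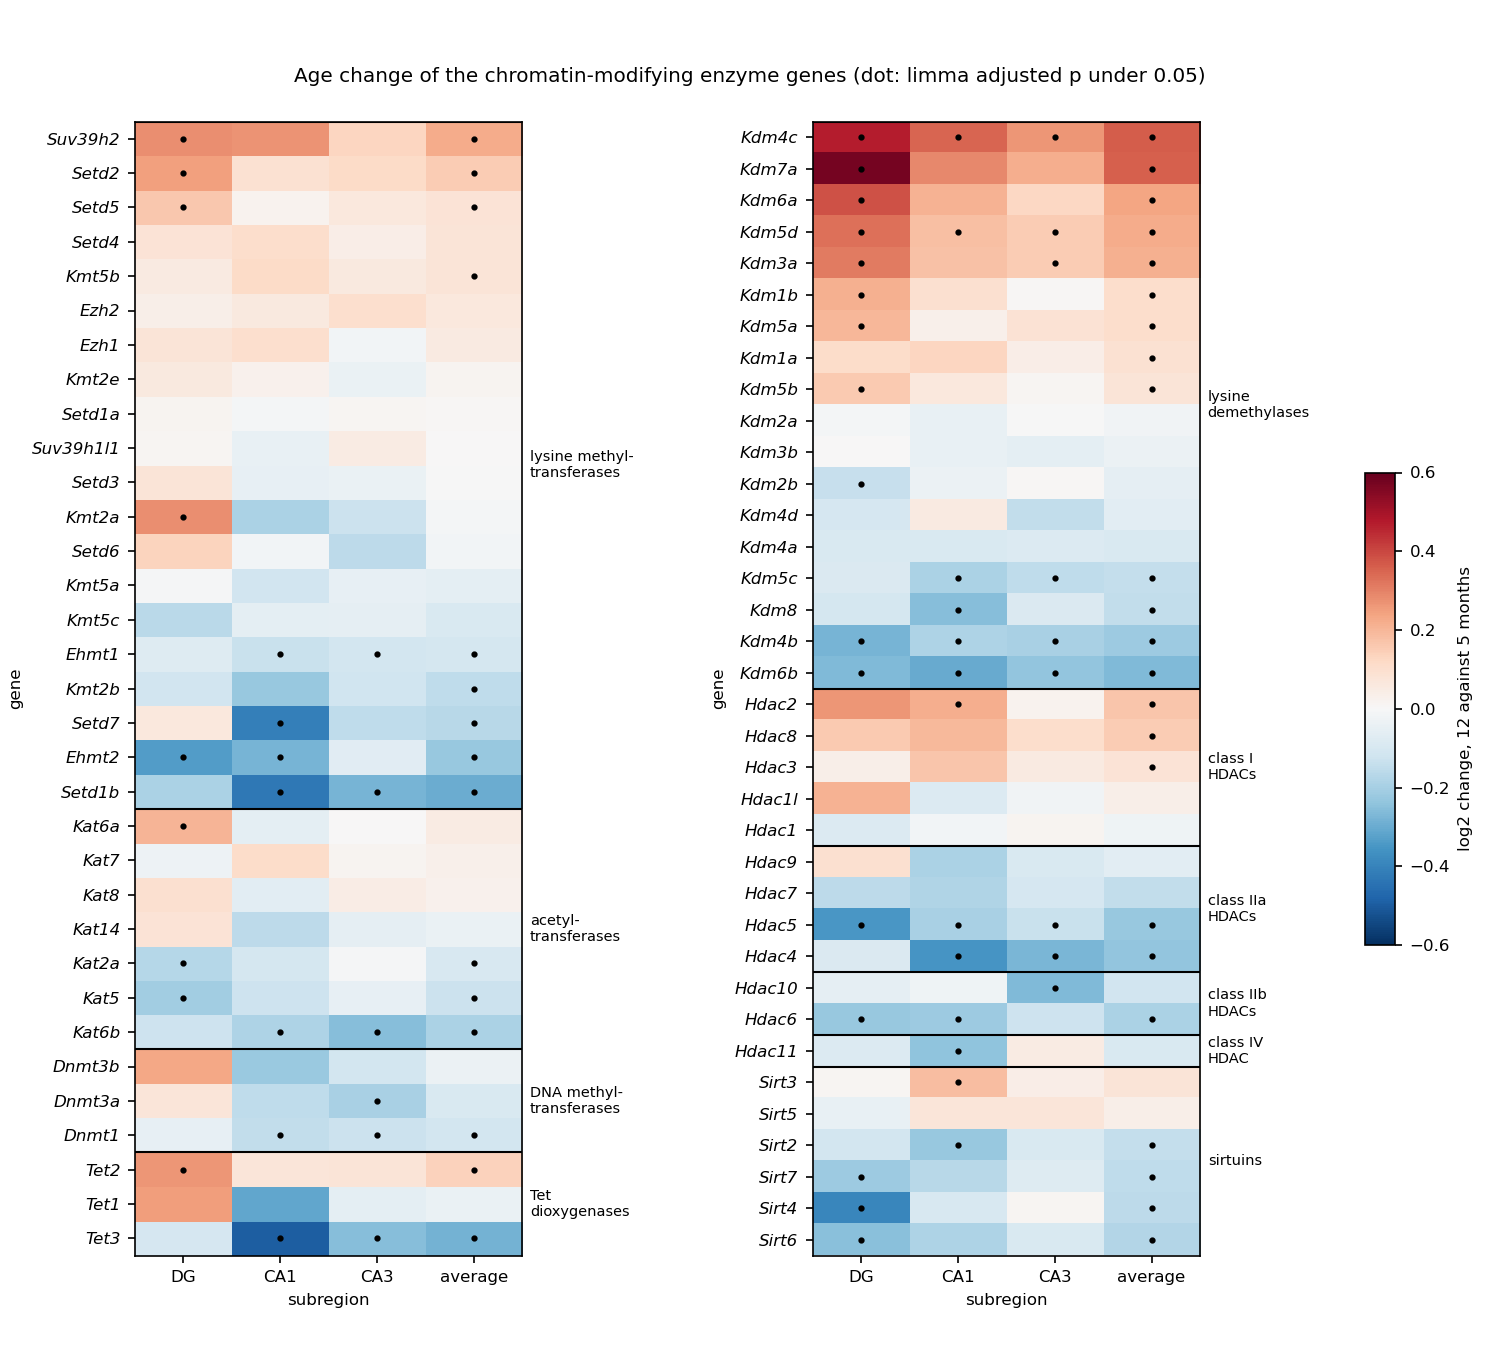
Log2 change between 12 and 5 months (colour, red higher at 12 months) for the 69 genes in rows, in the DG, CA1, CA3 and their average in columns, grouped by enzyme class and ordered by the average change; a dot marks a limma adjusted p under 0.05. Demethylases hold both the strongest red, Kdm7a with 0.58 in the DG, and 4 genes that fell on average, while class IIa deacetylases show no called rise.

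Among the demethylases, 3 pairs of relatives moved in opposite directions. Of 18 Kdm genes, 9 rose and 4 fell on the average of the subregions, beside 25.4% and 24.6% of all genes. In the DG alone 8 rose and 3 fell, beside 18.5% of all genes each way. Kdm4c and Kdm4b encode paralogous enzymes that strip methyl groups from a heterochromatin lysine of histone H3. Kdm4c lay between 296 and 529 normalized counts (median 405) at 12 months in the DG, against 227 to 434 (median 287) at 5 months. All 16 rats of 12 months were above the median of the 5-month rats and 6 were above every one of them, and the change was 0.47 ± 0.10 (log2, SE; limma adjusted p = 0.00076). In CA1 Kdm4c had 272 to 474 (median 340) at 12 months and 211 to 375 (median 257) at 5 months, and in CA3 305 to 424 (median 344) and 234 to 348 (median 296). The groups overlapped in both, with rises of 0.35 ± 0.10 and 0.26 ± 0.062 (adjusted p = 0.0101 and 0.00384).

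Kdm4b went the other way. It had 1855 to 2697 normalized counts (median 2268) at 12 months in the DG, against 2341 to 3155 (median 2719) at 5 months, with 9 of the 16 rats of 12 months below every 5-month rat. It fell by 0.28 ± 0.056 in the DG (limma adjusted p = 0.000653), by 0.19 ± 0.066 in CA1 (0.037) and by 0.19 ± 0.048 in CA3 (0.00571). The CA1 call was lost in 11 of 28 fits that each left out 1 rat, with adjusted p up to 0.0746. Averaged within rats, Kdm4c rose by 0.36 ± 0.058 (adjusted p = 1.79e-05) and Kdm4b fell by 0.22 ± 0.039 (5.53e-05), both also within each run. Kdm4a and Kdm4d, the other members of this family, did not pass on average, with -0.089 and -0.065.

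Kdm5d and Kdm5c, on the Y and X chromosomes, encode demethylases that erase a mark of active promoters. Kdm5d had 580 to 854 normalized counts (median 708) at 12 months in the DG, against 478 to 691 (median 551) at 5 months, and 11 rats of 12 months were above every 5-month rat. Its rise was 0.33 ± 0.063 in the DG (limma adjusted p = 0.000422), 0.18 ± 0.062 in CA1 (0.0324) and 0.15 ± 0.047 in CA3 (0.0215). The CA1 call was lost in 8 of 28 fits without 1 rat each (adjusted p up to 0.0627). Kdm5c had 919 to 1226 (median 1067) at 12 months in CA1, against 1093 to 1335 (median 1221) at 5 months. With 9 rats of 12 months below every 5-month rat, it fell by 0.19 ± 0.050 there (adjusted p = 0.00762) and by 0.15 ± 0.038 in CA3 (0.00525). In the DG its change of -0.088 ± 0.048 did not pass (0.149). Kdm5a and Kdm5b, autosomal relatives, rose in the DG by 0.20 ± 0.054 and 0.15 ± 0.043.

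Kdm6a and Kdm6b both remove the mark that Polycomb complexes lay down. Kdm6a had 242 to 492 normalized counts (median 380) at 12 months in the DG, against 229 to 351 (median 292) at 5 months, and 11 rats of 12 months exceeded every 5-month rat. It rose by 0.38 ± 0.089 (limma adjusted p = 0.00186), and in CA1 and CA3 its 0.21 ± 0.087 and 0.12 ± 0.059 did not pass. Kdm6b, an inducible enzyme, had 552 to 871 (median 720) at 12 months in CA1, against 654 to 1298 (median 835) at 5 months. It fell by 0.27 ± 0.089 (DG), 0.30 ± 0.088 (CA1) and 0.24 ± 0.068 (CA3) (adjusted p = 0.0204, 0.0142 and 0.0134), with broad overlap in the DG, where no 12-month rat lay below every 5-month rat.

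**Figure D2:**
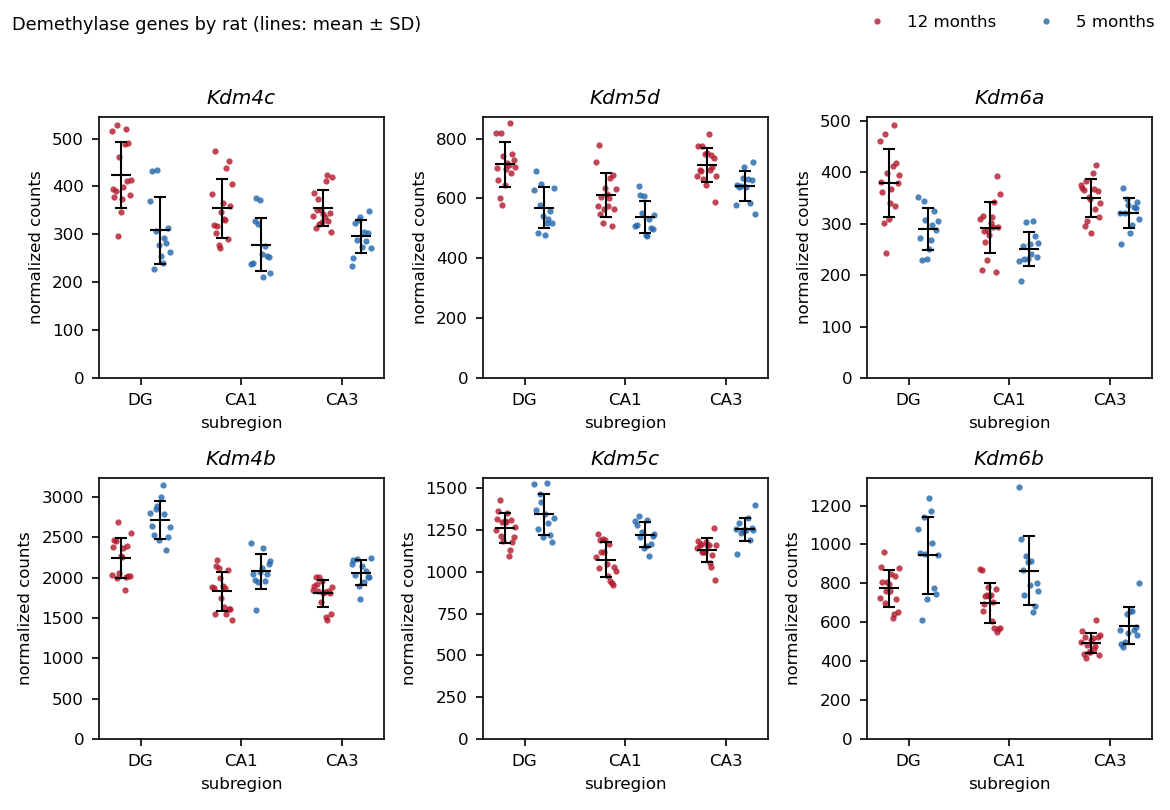
Normalized counts (y axis, from 0) of 6 demethylase genes in the DG, CA1 and CA3 (x axis), 1 point per rat, red for 12 months and blue for 5 months; lines give the mean ± SD. The upper row (Kdm4c, Kdm5d, Kdm6a) sits higher at 12 months, as in the DG medians of Kdm4c of 405 against 287, and the lower row (Kdm4b, Kdm5c, Kdm6b) sits lower, as in Kdm4b with 2268 against 2719.

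Of the other demethylases, Kdm7a, which removes repressive methyl groups of H3, had 65.4 to 217 normalized counts (median 153) in the DG at 12 months, against 56.7 to 146 (median 95.3) at 5 months. Its rise of 0.58 ± 0.15 was the largest of any member in that subregion (limma adjusted p = 0.00349), and 9 of 16 rats of 12 months were above every 5-month rat. Kdm3a, an eraser of a repressive H3 mark, rose by 0.31 ± 0.082 in the DG (0.00417) and 0.15 ± 0.050 in CA3 (0.0276). The CA3 call of Kdm3a was lost without 5-month replicate 7, 9 or 12 (adjusted p up to 0.0583). Kdm1b rose in the DG by 0.21 ± 0.073 and Kdm1a, the founding histone demethylase, on average by 0.093 ± 0.030. Kdm2b, which binds CG-rich promoters, fell in the DG by 0.14 ± 0.052, and Kdm8 in CA1 by 0.26 ± 0.070. Kdm2a, Kdm3b and Kdm4a passed in no subregion.

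Promoters of the Kdm4c and Kdm4b pair and of the Kdm5d and Kdm5c pair are shown because each pair encodes paralogous enzymes that moved in opposite directions. They were picked after their values were seen. The sequences are from RefSeq (GRCr8, not the build of the count tables) and run from 250 bases before to 50 after the gene's start, 5′ to 3′ on the gene's strand, with CG pairs in capitals. The windows are chr5:93146787-93147086 for Kdm4c, chr9:1245653-1245952 for Kdm4b, chrY:564236-564535 for Kdm5d and chrX:24824624-24824923 for Kdm5c, each on the plus strand.
Kdm4c: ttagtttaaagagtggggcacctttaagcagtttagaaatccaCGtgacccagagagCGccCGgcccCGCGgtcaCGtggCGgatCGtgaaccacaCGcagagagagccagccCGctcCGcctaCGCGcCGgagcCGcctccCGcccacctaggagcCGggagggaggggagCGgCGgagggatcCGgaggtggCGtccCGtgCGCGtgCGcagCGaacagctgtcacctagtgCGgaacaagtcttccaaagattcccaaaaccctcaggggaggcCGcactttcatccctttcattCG
Kdm4b: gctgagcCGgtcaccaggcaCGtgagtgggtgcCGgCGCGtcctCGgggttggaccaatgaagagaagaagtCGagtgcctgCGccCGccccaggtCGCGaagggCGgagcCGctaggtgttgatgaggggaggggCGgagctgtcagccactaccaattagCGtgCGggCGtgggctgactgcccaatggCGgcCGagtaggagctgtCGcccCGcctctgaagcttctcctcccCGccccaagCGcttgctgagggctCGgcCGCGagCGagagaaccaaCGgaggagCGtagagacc
Kdm5d: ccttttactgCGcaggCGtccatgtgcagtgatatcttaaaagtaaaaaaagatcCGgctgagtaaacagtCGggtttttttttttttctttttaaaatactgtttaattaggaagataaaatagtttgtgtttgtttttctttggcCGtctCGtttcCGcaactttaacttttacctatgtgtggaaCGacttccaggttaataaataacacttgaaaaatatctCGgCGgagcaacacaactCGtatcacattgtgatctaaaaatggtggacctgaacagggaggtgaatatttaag
Kdm5c: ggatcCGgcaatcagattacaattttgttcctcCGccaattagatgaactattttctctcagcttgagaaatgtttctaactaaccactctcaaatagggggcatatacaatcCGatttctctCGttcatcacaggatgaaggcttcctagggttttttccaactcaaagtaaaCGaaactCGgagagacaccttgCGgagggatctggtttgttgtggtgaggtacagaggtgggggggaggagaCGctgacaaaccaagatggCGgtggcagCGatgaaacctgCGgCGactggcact
Both Kdm4 windows hold 29 CG pairs, at 63.7% GC in Kdm4c and 67.7% in Kdm4b, so the pair that moved apart is alike in this respect. Kdm5d and Kdm5c hold 11 and 12 CG pairs at 36.3% and 48.0% GC. On either strand, the letters CCAAT stood in the Kdm4b and Kdm5c windows and not in those of Kdm4c and Kdm5d.

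A promoter was found for 56 of the 69 members. Their median GC content was 62.2%, against 51.7% over the 33469 promoters in the table, with a median of 21 CG pairs against 7. The letters GGGCGG (a GC box) stood on either strand in 67.9% of member promoters, against 33.1% of all promoters, CCAAT in 48.2% against 37.5%, and TATAAA in 1.79% against 14.2%. Members that rose on average (15 with a promoter) had a median of 26 CG pairs and a GC box in 73.3%, and members that fell (18) had 20 and 72.2%. The 23 members not called had 20 and 60.9%. CCAAT stood in 26.7% of those that rose, 44.4% of those that fell and 65.2% of those not called. These differences were not tested. These are matches of letters and not sites.

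Of the 20 lysine methyltransferases, 4 rose and 5 fell on average, shares close to the 25.4% and 24.6% of all genes. Setd1b, the core of a complex that methylates H3 at active promoters, had 514 to 854 normalized counts (median 689) at 12 months in CA1, against 692 to 1315 (median 951) at 5 months. All 16 rats of 12 months were below the 5-month median and 8 were below every 5-month rat. It fell by 0.43 ± 0.090 in CA1 (limma adjusted p = 0.00185) and by 0.28 ± 0.060 in CA3 (0.00172), and its -0.19 ± 0.077 in the DG missed the threshold (0.0528). Kmt2b, of the same enzyme family, fell on average by 0.15 ± 0.053, and Setd1a had an average change of 0.0057.

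Ehmt2 and Ehmt1 pair to place a repressive mark on H3. Ehmt2 had 4142 to 6577 normalized counts (median 4984) at 12 months in the DG, against 5316 to 6858 (median 6114) at 5 months, and 12 of 16 rats of 12 months lay below every 5-month rat. It fell by 0.33 ± 0.062 in the DG (limma adjusted p = 0.000387) and 0.28 ± 0.075 in CA1 (0.00902). In CA3 the medians were 4633 at 12 months and 4536 at 5 months, with a change of -0.070 ± 0.054 (0.376). Ehmt1 fell by 0.13 ± 0.045 in CA1 and 0.11 ± 0.038 in CA3 (adjusted p = 0.0269 and 0.0337).

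Other lysine methyltransferases rose in the DG. Setd2, which methylates H3 along transcribed genes, had 1017 to 1636 normalized counts (median 1409) at 12 months, against 988 to 1548 (median 1075) at 5 months, a rise of 0.25 ± 0.070 (limma adjusted p = 0.00767) in 15 of 16 rats relative to the 5-month median. Suv39h2, a heterochromatin methyltransferase, rose by 0.28 ± 0.11 there (0.049), Setd5 by 0.16 ± 0.053 and Kmt2a, a promoter-marking enzyme, by 0.28 ± 0.078. On average Kmt5b, which methylates histone H4, rose by 0.075 ± 0.026. Setd7 fell in CA1, as described with the differences between subregions. The Polycomb enzymes Ezh1 and Ezh2 did not pass in any subregion, with average changes of 0.054 and 0.065, and neither did Kmt2e, Kmt5a, Kmt5c, Setd3, Setd4, Setd6 or Suv39h1l1.

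Of the 7 acetyltransferases, 3 fell and 0 rose on average, against 24.6% and 25.4% of all genes. Kat6b, the catalytic subunit of a complex that acetylates H3, had 534 to 845 normalized counts (median 634) at 12 months in CA3, against 659 to 838 (median 778) at 5 months. In CA3 12 of 16 rats of 12 months lay below every 5-month rat, and the gene fell by 0.26 ± 0.052 (limma adjusted p = 0.00141). It fell by 0.18 ± 0.069 in CA1 (0.0486). Kat2a, of the SAGA coactivator, and Kat5, known from DNA repair, fell in the DG by 0.17 ± 0.048 and 0.21 ± 0.070 (0.00682 and 0.0187). Kat6a, the close relative of Kat6b, rose in the DG with 1456 to 1808 (median 1686) at 12 months and 1117 to 1826 (median 1475) at 5 months. Kat7, Kat8 and Kat14 did not pass in any subregion.

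Of the class I enzymes, several of which sit in nuclear corepressor complexes, 3 of 5 rose on average and 0 fell, where 25.4% of all genes rose and 24.6% fell. None of the 3 passed in the first run alone. Hdac8 rose by 0.15 ± 0.049, Hdac2 by 0.17 ± 0.061 and Hdac3 by 0.084 ± 0.032 (limma adjusted p = 0.0108, 0.023 and 0.031). Hdac1 and Hdac1l did not pass, with -0.027 and 0.035. In single subregions the class gave 1 call, Hdac2 in CA1, with 785 to 1243 normalized counts (median 1114) at 12 months and 616 to 1136 (median 988) at 5 months. That rise of 0.22 ± 0.080 (0.0451) did not pass in 18 of the 28 fits that each omitted a rat, with adjusted p up to 0.0961.

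Hdac2 rested on the second run. Its average change was 0.32 there (limma adjusted p = 0.0018) and 0.00028 in the first run. In the DG, the second run had 1114 to 1692 normalized counts (median 1501) at 12 months and 775 to 1066 (median 883) at 5 months, without overlap. The first run had 1215 to 1679 (median 1435) at 12 months and 1374 to 1754 (median 1600) at 5 months. Over all 28 rats the DG change of 0.27 ± 0.11 did not pass (0.0592).

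The class IIa enzymes shuttle between nucleus and cytoplasm with neuronal activity, and 2 of 4 fell on average with 0 rising (24.6% of all genes fell and 25.4% rose). Hdac5 had 1275 to 2113 normalized counts (median 1631) at 12 months in the DG, against 1690 to 2685 (median 2071) at 5 months. It fell by 0.35 ± 0.074 (DG), 0.20 ± 0.058 (CA1) and 0.13 ± 0.044 (CA3) (limma adjusted p = 0.00091, 0.0154 and 0.0316), with 10, 10 and 6 of 16 rats of 12 months below every 5-month rat. The CA3 call was lost without 5-month replicate 1, 7, 8 or 12 or 12-month replicate 5 (adjusted p up to 0.0663). Hdac4 had 648 to 947 (median 800) at 12 months in CA3, against 850 to 1097 (median 984) at 5 months, and 12 rats of 12 months were below every 5-month rat. It fell by 0.27 ± 0.052 in CA3 (0.000868) and 0.35 ± 0.080 in CA1 (0.00295), and its -0.085 ± 0.087 in the DG did not pass (0.459). Hdac7 and Hdac9 passed in no subregion.

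Hdac6 fell in the DG by 0.23 ± 0.062 and in CA1 by 0.22 ± 0.062 (limma adjusted p = 0.00552 and 0.0126). Hdac10, a polyamine deacetylase, fell in CA3 by 0.27 ± 0.091 (0.0355), where it had 99.4 to 176 normalized counts (median 147) at 12 months and 140 to 258 (median 167) at 5 months. Hdac11, the single class IV enzyme, had 1758 to 3644 (median 2975) at 12 months in CA1, against 3139 to 3885 (median 3316) at 5 months. It fell there by 0.24 ± 0.078 (0.023), with 12 of 16 rats below every 5-month rat.

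**Figure D3:**
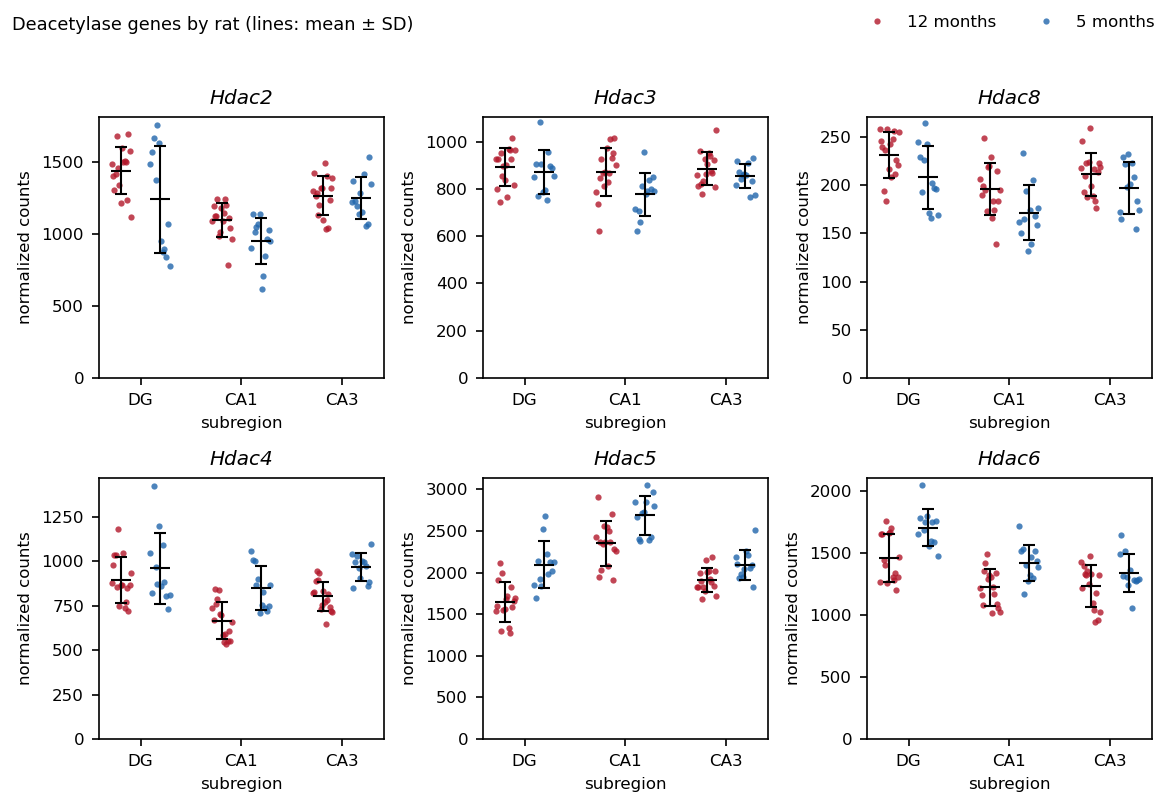
Normalized counts (y axis, from 0) of 6 deacetylase genes in the DG, CA1 and CA3 (x axis), 1 point per rat, red for 12 months and blue for 5 months; lines give the mean ± SD. In the upper row (Hdac2, Hdac3, Hdac8) the 5-month DG values of Hdac2 form separate clouds from 775 to 1066 and from 1374 to 1754, and in the lower row (Hdac4, Hdac5, Hdac6) Hdac5 sits lower at 12 months in each subregion.

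Sirtuins, deacetylases that consume NAD, fell for 4 of 6 genes on average and rose for 0, against 24.6% and 25.4% of all genes. Sirt6, which keeps chromatin silent and helps DNA repair, had 352 to 595 normalized counts (median 536) at 12 months in the DG, against 493 to 740 (median 592) at 5 months. It fell by 0.25 ± 0.073 there (limma adjusted p = 0.00792) and by 0.18 ± 0.038 on average (0.000364), and its -0.19 ± 0.072 in CA1 missed the threshold (0.0531). Sirt4 had 49.5 to 94.97 (median 73.1) at 12 months in the DG, against 79.3 to 114 (median 90.5) at 5 months, and 13 of 16 rats of 12 months were below every 5-month rat. It fell by 0.39 ± 0.090 (0.00176), and Sirt7, a nucleolar enzyme, by 0.22 ± 0.084 (0.0414).

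Sirt2 is abundant in oligodendrocytes. It had 3106 to 4442 normalized counts (median 3672) at 12 months in CA1, against 3740 to 5154 (median 4204) at 5 months, and fell by 0.23 ± 0.060 (limma adjusted p = 0.0082). Oligodendrocyte markers had a median change of -0.21 in CA1, with 1 of 6 called lower and 0 higher. Their summed level was 6264 to 14540 RPM at 12 months and 8308 to 15589 at 5 months, with none at 0. Their part in the Sirt2 value was not tested. Sirt3 rose in CA1 by 0.18 ± 0.060 (0.0253), a call lost without 5-month replicate 2 (0.0511), and Sirt5 passed in no subregion.

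Among the enzymes of DNA methylation, Dnmt1, which copies methylation after replication, had 645 to 841 normalized counts (median 742) at 12 months in CA3, against 746 to 920 (median 806) at 5 months. It fell by 0.13 ± 0.040 in CA3 and 0.15 ± 0.054 in CA1 (limma adjusted p = 0.0208 and 0.0407), with 9 of 16 rats of 12 months below every 5-month rat in each. Dnmt3a, which methylates new sites in neurons, fell in CA3 by 0.20 ± 0.071 (0.0456), with 268 to 383 (median 306) at 12 months and 278 to 446 (median 366) at 5 months. Dnmt3b lay near the limit of detection, with a median of 0.656 RPM in the DG, and did not pass.

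The Tet enzymes went different ways. Tet3 had 306 to 740 normalized counts (median 465) at 12 months in CA1, against 489 to 1341 (median 665) at 5 months, and 10 of 16 rats of 12 months were below every 5-month rat. Its fall of 0.50 ± 0.13 there was the largest of any member in CA1 (limma adjusted p = 0.00767), and it fell by 0.26 ± 0.084 in CA3 (0.0275). The CA3 change was -0.65 in the second run and 0.043 in the first, and the call was lost without 5-month replicate 8 or 12 (adjusted p up to 0.0596). Tet2 had 526 to 739 (median 694) at 12 months in the DG, against 471 to 784 (median 542) at 5 months, a rise of 0.27 ± 0.065 (0.00275) within overlapping ranges. Tet1 passed in no subregion, with 0.25 ± 0.13 in the DG and -0.31 ± 0.12 in CA1.

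Whether age acted differently in the subregions was tested on the difference between subregions within each rat. DG minus CA1 gave 3 members with a higher difference at 12 months and 0 with a lower one (0.579% of all 14340 genes passed). DG minus CA3 gave 1 and 1 (1.34% of all genes passed upward and 1.36% downward, 2.71% in all), and CA1 minus CA3 gave 0 (0% of all genes). By limma, 3 of the 69 members and 1442 of all 14513 genes reached an unadjusted p below 0.05 in CA1 minus CA3. No other tool was run on the differences. A subregion in which a gene passed is thus no sign that the others differ from it, unless the gene is named here.

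Kmt2a had 2922 to 4343 normalized counts (median 3560) at 12 months in the DG, against 2373 to 4374 (median 2899) at 5 months, all 16 rats lying above the 5-month median. In CA1 it had 1661 to 3392 (median 2328) at 12 months and 2111 to 3819 (median 2726) at 5 months, and in CA3 1555 to 2557 (median 2044) and 1885 to 2516 (median 2225). The age change of Kmt2a was higher in the DG than in CA1 by 0.47 ± 0.10 and than in CA3 by 0.41 ± 0.10 (limma adjusted p = 0.0338 and 0.0326). Ehmt2 differed the other way, with an age change lower in the DG than in CA3 by 0.26 ± 0.066 (0.0326). The age change of Kat6a was higher in the DG than in CA1 by 0.26 ± 0.063 (0.0473).

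Setd7, which methylates H3 and other proteins, had 419 to 849 normalized counts (median 660) at 12 months in CA1, against 749 to 1080 (median 872) at 5 months, a fall of 0.41 ± 0.091 (limma adjusted p = 0.00277). In the DG it had 708 to 1113 (median 974) at 12 months and 714 to 1060 (median 874) at 5 months. The difference of the age changes, DG minus CA1, was 0.47 ± 0.088 (0.0163), and in 11 of 16 rats of 12 months the difference exceeded that of every 5-month rat. Sirt4 in DG minus CA3 came next below the threshold with -0.40 ± 0.12 (0.055).

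In the DG libraries the 5 CA1 markers had a median age change of -0.56, with 1 called lower, and summed to 134 to 770 RPM at 12 months and 172 to 1056 at 5 months, with none at 0. In the CA1 libraries the 4 DG markers summed to 52.9 to 399 RPM (median 172) at 12 months and 51.6 to 250 (median 111) at 5 months. There the CA1 markers summed to 1839 to 3115 (median 2373) at 12 months and 2052 to 3593 (median 2756) at 5 months. The part of these markers in the differences and in the CA1 changes was not tested. Each of the 5 differences had the same sign in both runs. So did 46 (DG minus CA1) and 48 (DG minus CA3) of all 69 members, called or not. The first run alone called 0 members in DG minus CA1 (0.00697% of all genes) and 0 in DG minus CA3 (0.00696%). The second called 0 (0.0697%) and 3 (4.88%), Kmt2a in DG minus CA3 among them (limma adjusted p = 0.0176). Without the farthest libraries Kmt2a and Ehmt2 in DG minus CA3 had 0.32 and -0.23 (limma adjusted p = 0.125 and 0.0820). With the rats as a random block Ehmt2 had an adjusted p of 0.0854, and leaving out single rats ended the calls of Kat6a in 22 of 28 fits, of Kmt2a in 10 against CA1 and 6 against CA3, and of Ehmt2 in 9.

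**Figure D4:**
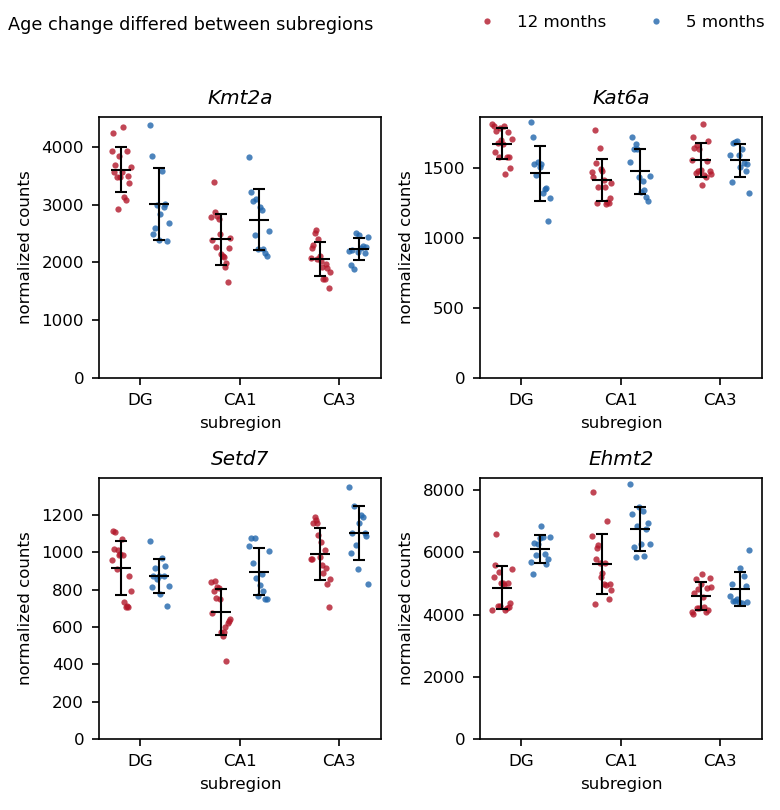
Normalized counts (y axis, from 0) of Kmt2a, Kat6a, Setd7 and Ehmt2 in the DG, CA1 and CA3 (x axis), 1 point per rat, red for 12 months and blue for 5 months; lines give the mean ± SD. Kmt2a is higher at 12 months in the DG (medians 3560 against 2899) and lower in CA1 (2328 against 2726), and Setd7 is lower in CA1 (660 against 872).

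Levels by subregion are given in RPM and described without a test, since the 3 tables were normalized separately. The median over 28 rats was highest in the DG for 48 of 69 members (69.6%, against 39.0% of all 15109 genes in the tables), in CA1 for 12 and in CA3 for 9. CA3 had the lowest median for 43 members. Kmt2a had a median of 200.5 (DG), 137 (CA1) and 114 (CA3), with the DG highest in 23 of 28 rats. Ezh1 had 164 in the DG (131 to 186), 123.2 in CA3 (110 to 137) and 109 in CA1 (93.9 to 138), Kat6b had 63.6, 36.3 and 44.1 in the same order, and Kdm2b 30.0, 21.7 and 19.7. For these 3 genes the DG was highest in 28 of 28 rats.

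Of the 12 Hdac genes, Hdac11, Hdac5 and Hdac1l had their highest median in CA1, Hdac9 in CA3 and the others in the DG. Hdac11 had a median of 178 RPM in CA1 (100.1 to 220), 125 in CA3 (104 to 157) and 88.7 in the DG (65.8 to 119), with CA1 highest in 26 rats and the DG lowest in 28. Hdac5 peaked in CA1 with 141, and its 105 (DG) and 105 (CA3) did not differ beyond their spread. Hdac9 had 30.4 in CA3 (19.1 to 38.6), 25.3 in CA1 (19.6 to 36.1) and 11.8 in the DG (8.17 to 17.3), and the DG was lowest in each rat. Kdm7a, Sirt2 and Setd7 were also highest in CA3, with 10.2, 248 and 55.9, in 23, 22 and 20 of 28 rats. Ehmt2 and Kat14 were highest in CA1 with 349 and 14.99, in 22 and 16 rats. Oligodendrocyte markers were highest in CA3 as well, summing to 10954 to 22766 at 12 months there, against 3301 to 5423 in the DG, and their part in the order of Sirt2 was not tested.

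**Figure D5:**
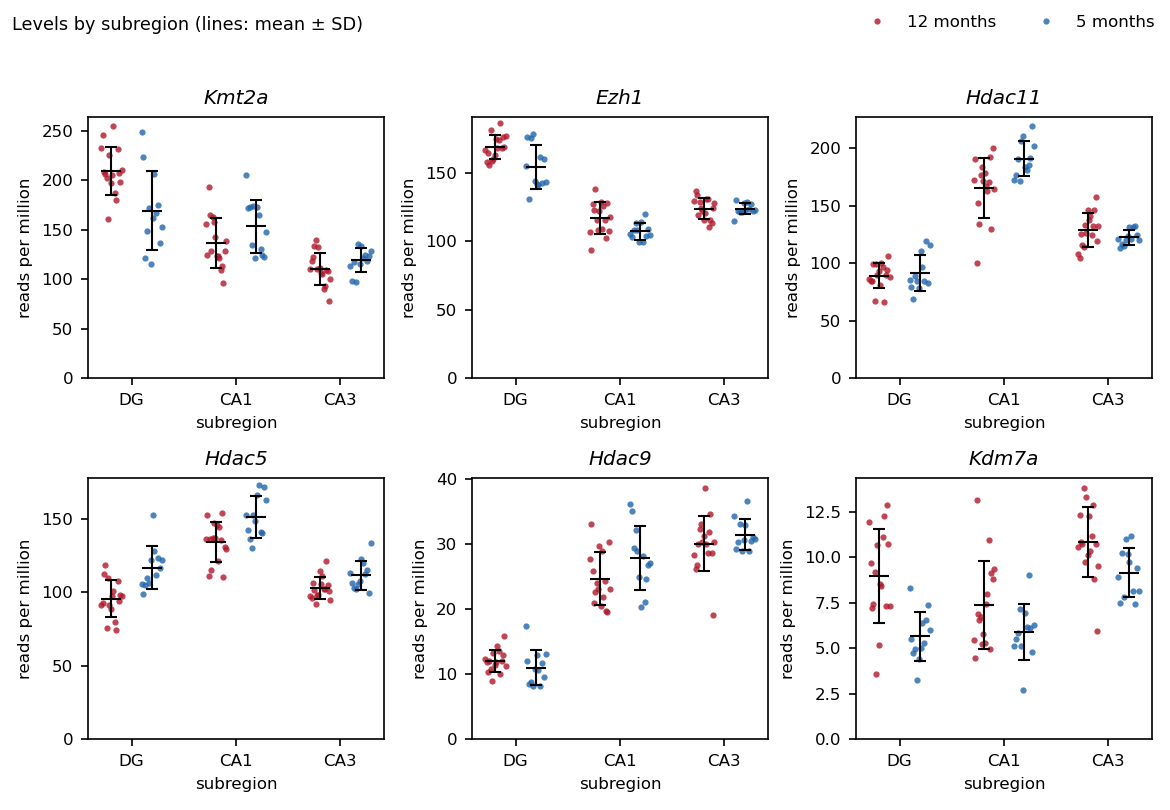
RPM (y axis, from 0) of Kmt2a, Ezh1, Hdac11, Hdac5, Hdac9 and Kdm7a in the DG, CA1 and CA3 (x axis), 1 point per rat, red for 12 months and blue for 5 months; lines give the mean ± SD. Kmt2a and Ezh1 peak in the DG, Hdac11 and Hdac5 in CA1, and Hdac9, with medians of 30.4 in CA3 and 11.8 in the DG, and Kdm7a in CA3.

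Genes that work with these enzymes were read from a list of 108, of which 103 were tested. On average 21 rose and 34 fell, a share of 53.4% close to that of all genes, with 25 and 24 in the DG (18.5% of all genes each way), 7 and 22 in CA1 (12.4% and 12.8%) and 4 and 15 in CA3 (10.9% and 10.8%). Of 21 Polycomb genes, 7 rose and 6 fell on average. The partner genes named here are among those with the smallest p in each direction. Suz12, a core subunit of the complex that holds Ezh1 or Ezh2, rose on average by 0.36 ± 0.073 (limma adjusted p = 0.000199) and Rbbp7, a histone-binding subunit, by 0.23 ± 0.048 (0.000243). Cbx6, which reads the Polycomb mark, fell by 0.38 ± 0.052 (5.24e-06) and Ring1, a ubiquitin ligase for histone H2A, by 0.24 ± 0.037 (1.08e-05). Among corepressors, Gatad2a, of the NuRD complex, fell on average by 0.21 ± 0.030. Psip1, a chromatin tether, and Prmt6, an arginine methyltransferase, rose on average by 0.24 ± 0.042 and 0.23 ± 0.041.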

How the data were processed

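PolyA-selected RNA from the DG, CA1 and CA3 of 16 rats of 12 months and 12 rats of 5 months was measured. The deposited values are a signal, gene counts that the authors divided by 1 size factor per library: values up to 1000 reads were within 0.1 of a whole read in 100.0% of cases. Build rn6 and the tools STAR 2.5.3a, Partek and DESeq2 3.5 were used, per the submitters' processing notes. For the annotation and the strand setting, nothing was given in these sources, so overlapping antisense genes cannot be told apart. Columns without a sample numbered 0.

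In R 4.3.3, limma 3.58.1 (trend, two-sided) was run on log2(value + 1) for genes of at least 10 in 12 of 28 libraries per subregion, with Benjamini-Hochberg adjustment over all genes and a threshold of 0.05. Fold changes on this scale understate those of low genes. The average and the differences used each rat's own 3 libraries, paired by the animal number in the titles. Libraries of a rat correlated by 0.107 in the joint fit. P-values measure the spread between rats. The fits within subregions were tried on simulated counts without a run effect or a link between a rat's libraries. The average and the differences were not simulated, so that trial cannot speak for them or for the runs. Alternatives were pseudocounts of 0.5 and 5, no filter or a minimum of 50, TMM, median of ratios, the run, rats left out, and count tests on the recovered reads (edgeR 4.0.16, DESeq2 1.42.0). Members and lists were chosen with earlier results of these data known. Members named with full values were those with the smallest p per subregion and direction, in the average and in the differences, those called in each subregion, the leading member of each class and the 4 most enriched by level per subregion. Promoter motifs were searched on both strands. One of the partner genes that the naming rule chose is not reported here.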

Additional observations from a re-analysis of the deposited data

Results flagged for a closer look

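The age change differed between subregions, by the limma test of the within-rat difference, for 5 results. In DG minus CA1 the difference of the age changes was 0.47 for Setd7, 0.47 for Kmt2a and 0.26 for Kat6a on the log2 scale. The within-rat difference of Setd7 lay between 0.19 and 0.91 at 12 months (median 0.36) and between -0.40 and 0.30 at 5 months (median -0.036). For Kmt2a it lay between 0.059 and 1.07 at 12 months and between -0.30 and 0.48 at 5 months, and 13 of 16 rats of 12 months exceeded every 5-month rat. In DG minus CA3 the difference of the age changes was 0.41 for Kmt2a and -0.26 for Ehmt2. For Ehmt2 10 of 16 rats of 12 months lay below every 5-month rat, with medians of 0.034 at 12 months and 0.35 at 5 months.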

How the results depend on the processing

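All 81 named results kept their direction and their side of the threshold under TMM, median of ratios, no filter, a pseudocount of 0.5 and the run as a term, and 44 of 44 did under edgeR and DESeq2. A pseudocount of 5 ended 1 call, Kat6a in DG minus CA1 (limma adjusted p = 0.0505), and a minimum of 50 added 1, Sirt4 in DG minus CA3 (0.0437). The second run alone ended 8 calls and leaving out the farthest libraries 5. In the first run alone 28 did, 52 no longer passed and Tet3 in CA3 reversed to 0.043. That run called 0 members higher and 0 lower in the DG, 0 and 2 in CA1, 0 and 0 in CA3, 3 and 11 on average, 0 higher in DG minus CA1, and 0 higher and 0 lower in DG minus CA3. Members higher in CA1 numbered 9 with the run as a term, 9 in the second run alone and 7 without the farthest libraries, which left 7 lower in CA3. Of all genes, 2356, 2463 and 2195 were higher in CA1 in these fits, against 1827 in the unaltered fit, and 1411 were lower in CA3, against 1603. In DG minus CA1, 0 members were higher in the second run and 5 without the farthest libraries. Of all genes, 5 and 370 were higher, against 55 in the unaltered fit. In DG minus CA3, 3 members were higher in the second run, and 0 without the replicate block. Of all genes, 402 and 31 were higher, against 193 in the unaltered fit. There 2 members were lower at a minimum of 50, and 0 in the second run, without the farthest libraries, with the replicate block and without it. Of all genes, 231, 300, 120, 140 and 33 were lower in these fits, against 196 in the unaltered fit. The cause of these shifts was not tested.

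Leaving out each rat in turn gave 2 to 8 members higher in CA1, 2 to 6 in CA3, 1 to 4 in DG minus CA1 and 0 to 4 in DG minus CA3, with 0 to 2 lower in the last. The DG counts ran over 13 to 16 higher and 9 to 13 lower, and no named call reversed. Sirt4 in DG minus CA3 passed in 5. The replicate block, the rat, ended the call of Ehmt2 in DG minus CA3 (limma adjusted p = 0.0854) and of no other of 37 named results. On the deposited values, 18 members had their highest median in CA3. At 14.4 to 23.4 M reads per library, Dnmt3b is the member most limited by depth.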

Other observations

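The spread between rats of one age was similar across subregions. The median coefficient of variation over the 69 members was 11.5% at 12 months and 12.2% at 5 months in the DG, 11.9% and 12.4% in CA1, and 10.02% and 9.31% in CA3. Kat8, an acetyltransferase of histone H4, varied least in CA1, with 4.68% at 12 months and 3.56% at 5 months. Dnmt3b varied most there, with 51.0% at 12 months and 39.6% at 5 months.

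Summed over the 69 genes, the members took 3989 to 4447 RPM (median 4218) at 12 months in the DG, against 3521 to 4503 (median 4194) at 5 months. In CA1 they took 3598 to 4133 (median 3957) at 12 months and 3900 to 4474 (median 4092) at 5 months, and in CA3 3267 to 3923 (median 3663) and 3525 to 3819 (median 3726). The ages overlapped in each subregion. Choroid plexus markers, from tissue next to the hippocampus, reached 1061 RPM in 1 CA3 library of 12 months.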
